A study of Saccharomyces cerevisiae with 83 samples.

Results

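The change in plasmid abundance over 10 generations was measured in AGY1859, a haploid Saccharomyces cerevisiae strain of the YPS1009 background, in batch 2 of a gene duplication study. The 6 libraries whose labels name this strain were used, 3 at generation 0 and 3 at generation 10, of 83 libraries in the series. The study asked which extra gene copies alter growth in euploid cells and in cells with an additional chromosome IV, VII, XII or XV, with or without the RNA-binding protein Ssd1. Which of these AGY1859 is, its karyotype and its SSD1 state, is not given in the sources used here, so strains are named by number. All groups carried the same pool of barcoded centromeric plasmids and were grown at 30 °C in synthetic medium lacking histidine, with nourseothricin at 100 mg per L and G418 at 200 mg per L, the second to keep the plasmids. Generation 0 is the thawed, library-transformed stock, and generation 10 is the culture grown from it, diluted once after 5 generations. Per the series' design text, the 3 replicates of a batch 2 strain came from 3 independent transformations. The other strains with both generations in batch 2 were AGY1611, AGY1613, AGY1860, AGY1862 and AGY1863, and they serve as the comparison.

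A centromeric plasmid is kept at about the copy number of a chromosome, so a cell carrying one holds an added copy of that gene under its own promoter. Cells in which the added copy slows growth leave fewer descendants, and their barcode becomes rarer in the pool. Barcodes of copies that do no harm, or that help in this medium, hold their share or rise. Such a measurement is relative: each plasmid is compared with the rest of the pool.

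Total counts per library were 2638482, 5699227 and 5391740 at generation 0 and 1207207, 2149939 and 1988819 at generation 10. Of 4871 gene entries, 175 to 215 had no count in a generation 0 library and 459 to 811 in a generation 10 library. The median standard deviation of log2 CPM (counts relative to the TMM-scaled library total, with 1 added) between replicates was 0.11 at generation 0 and 0.57 at generation 10. At the start, 1.30 to 1.36% of counts went to the top 10 barcodes, and 3.22 to 4.26% after growth. Across entries, the log2 changes of the AGY1859 cultures had a Spearman correlation of 0.354 to 0.384 with each other, and of 0.239 to 0.453 with cultures of the other strains. These are descriptions over entries, which are not independent replicates.

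Calls of a fall outnumbered calls of a rise, most of all among barcodes scarce at generation 0. Of 4579 entries tested, 665 (14.5%) passed an adjusted p of 0.05 in edgeR's quasi-likelihood test and are described as called, 428 (9.35%) lower and 237 (5.18%) higher at generation 10. At an unadjusted p of 0.05 there were 1196 (26.1%). The libraries of generations 0 and 10 did not overlap for 425 (9.28%) entries called lower and 177 (3.87%) called higher, against 960 (21%) lower and 577 (12.6%) higher without regard to the test. Falls were also larger: the median log2 change was -2.16 among entries called lower, 1.08 among those called higher and 0.01 over all tested. A fall of more than 4 on the log2 scale was called for 132 entries, and a rise of more than 2 for 26. With library size alone in place of TMM the split became 523 lower and 143 higher, with a median over all entries of -0.12. The spread was estimated from all 51 libraries of the batch. Fitted to the 6 AGY1859 libraries alone, 264 entries were called, 188 lower and 76 higher. Leaving out generation 0 replicate 3 left 436 calls.

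**Figure D1:**
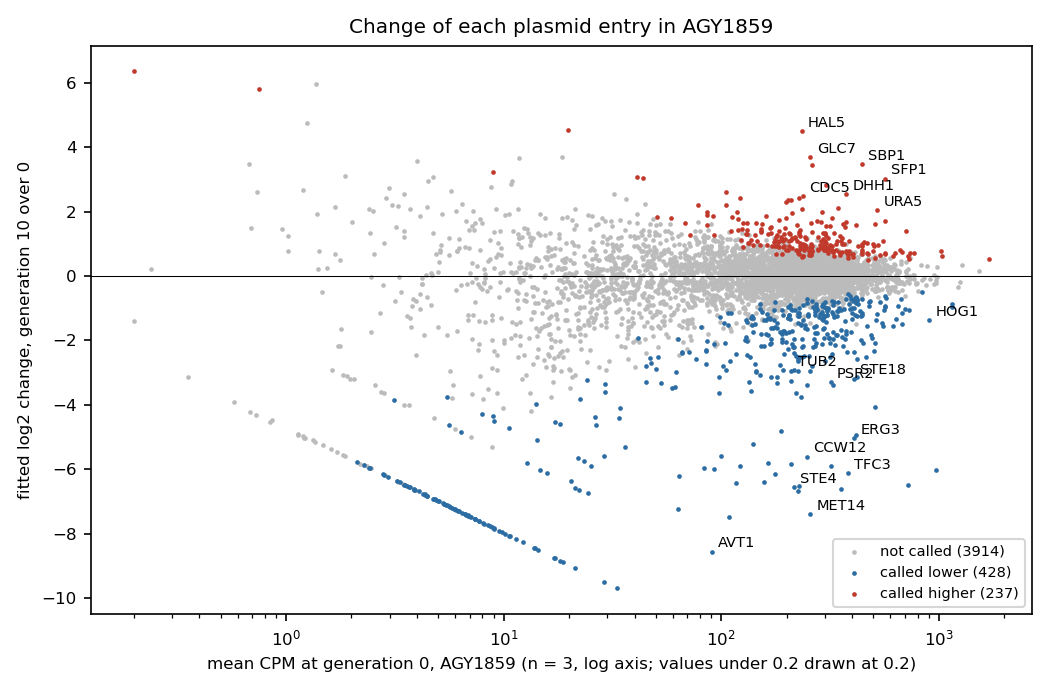
Fitted log2 change from generation 0 to generation 10 in AGY1859 (y axis) against the mean CPM at generation 0 (x axis, log scale), with 1 point per tested entry. The 428 entries called lower (blue) reach further from 0 than the 237 called higher (red). The diagonal line of points at the lower left holds entries with 0 counts at generation 10.

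The kinase gene HAL5 had the highest mean CPM of the pool at generation 10 and was the most abundant plasmid in culture 2. CRH1 and SBP1 had more counts in culture 1, and SFP1 and SBP1 among others had more in culture 3. Hal5 is a protein kinase that supports potassium uptake and tolerance of salt. HAL5 stood at 213, 243 and 246 CPM at generation 0 and at 3978, 10613 and 1502 CPM at generation 10. All 3 cultures were far above the start, with culture 2 the highest and culture 3 the lowest. The log2 change was 4.52 ± 0.41 (SE, adjusted p = 3.77e-12), and 3.55 without culture 2. HAL5 also rose in 14 of 15 cultures of the other strains. Per culture (CPM plus 1), its log2 change was 2.60 to 5.44 in AGY1859 and -0.12 to 3.90 in the others.

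GLC7, the catalytic subunit of yeast protein phosphatase 1, rose from 240, 280 and 252 CPM to 3254, 4636 and 2067 CPM. Its groups did not overlap, as for 577 entries (12.6% of those tested) that stood higher in all generation 10 libraries. The log2 change was 3.69 ± 0.40 (SE, adjusted p = 8.45e-10). GLC7 rose in all 15 cultures of the other strains too. Per culture, its log2 change was 3.03 to 4.04 in AGY1859 and 0.30 to 3.81 in the others, so the strains overlapped.

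A pair of genes that act on messenger RNA in the cytoplasm rose as well. SBP1, an RNA-binding protein that represses translation, went from 531, 410 and 391 CPM to 4532, 4595 and 5696 CPM. The 3 cultures were close to each other, and the log2 change was 3.48 ± 0.26 (SE, adjusted p = 9.62e-15). DHH1, the RNA helicase that promotes decapping and translational repression, went from 358, 372 and 401 CPM to 2019, 2918 and 1707 CPM, a log2 change of 2.55 ± 0.37 (SE, adjusted p = 1.08e-06).

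SFP1, a transcription factor that drives ribosomal protein and ribosome biogenesis genes, was at 561, 541 and 600 CPM at generation 0. At generation 10 it was at 3638, 4563 and 5716 CPM. The log2 change was 3.03 ± 0.22 (SE, adjusted p = 8.84e-15).

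Further entries among the 15 that rose most had log2 changes of 2.06 to 3.45. CDC25, the exchange factor that activates Ras, rose by 2.62 ± 0.59. CDC5, the polo-like kinase of mitosis, rose by 2.49 ± 0.26. MEP3, an ammonium permease, rose by 2.42 ± 0.39, and POG1, a nuclear chromatin-associated protein, by 2.35 ± 0.37. UBP13, a ubiquitin-specific protease, rose by 2.11 ± 0.20, and URA5, an orotate phosphoribosyltransferase of pyrimidine synthesis, by 2.06 ± 0.26. These errors are SE, and the adjusted p was at most 0.00128 (CDC25). SBP1, CDC5 and UBP13 rose in all 15 cultures of the other strains as well, by less than in any AGY1859 culture.

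Some of the 15 differed between cultures, LCD1, HSP150 and MIA40 among them. LCD1, the partner of the checkpoint kinase Mec1, was at 239, 264 and 279 CPM at generation 0 and at 289, 7865 and 376 CPM at generation 10. Its rise rested on culture 2: the log2 change of 3.45 was 0.35 without it. HSP150, a secreted wall glycoprotein, and MIA40, the mitochondrial import oxidoreductase, had changes of 3.04 and 2.21. Without culture 2, MIA40 was at 1.14 (adjusted p = 0.058, edgeR). Fitted to the AGY1859 libraries alone, the adjusted p was 0.197 for LCD1, 0.0526 for HSP150 and 0.0976 for MIA40. HAL5, GLC7, SBP1, SFP1, CDC25, DHH1, CDC5, MEP3, POG1, UBP13 and URA5 stayed called in all 16 alternatives.

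**Figure D2:**
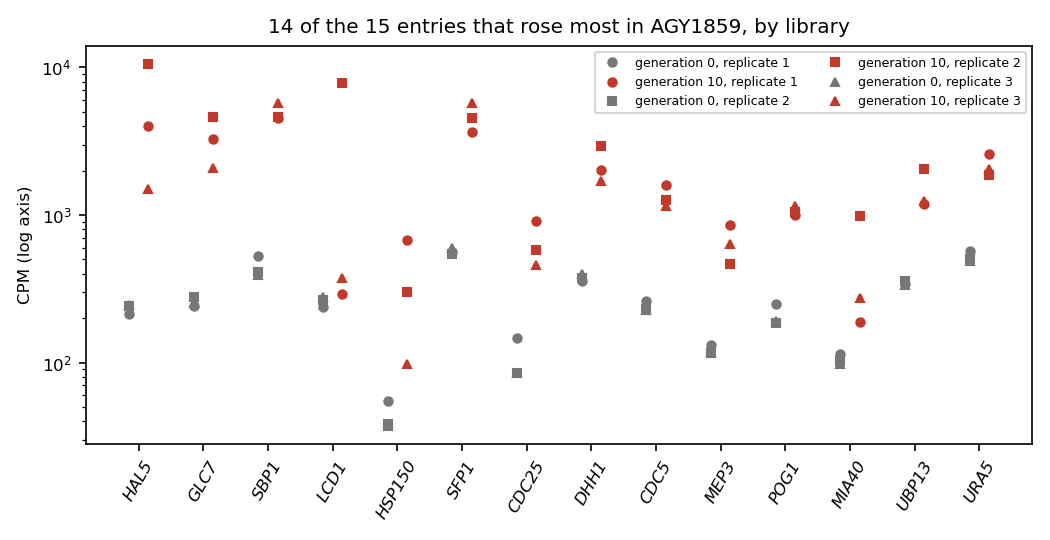
CPM of 14 of the 15 entries that rose most in AGY1859 (y axis, log scale), with 1 marker per library at generation 0 (grey) and generation 10 (red), the shape giving the replicate. SBP1, SFP1 and CDC5 rose to similar levels in all 3 cultures, while LCD1 was at 7865 CPM in replicate 2 and at 289 and 376 CPM in the other 2.

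Among the 15 entries that fell most, 14 had 0 counts in all 3 generation 10 libraries. They began at 26 to 201 counts per library. Each empty library was set to 3 counts, an approximate upper limit for a count of 0 and not a strict bound. At that limit they were 5.80-fold to 18.0-fold lower. The limit covers counting error alone, as PCR copies of 1 barcode are not separate molecules. The 14 were LPX2 (a peroxisomal lipase), PPZ2 (a protein phosphatase), CCT3 (a subunit of the CCT chaperonin), MLP2 (a nuclear pore basket protein), TEA1 (a transcription factor), CDC33 (the cap-binding factor eIF4E), NAM8 (a splicing factor), ARO80 (an activator of aromatic amino acid catabolism), WAR1 (the weak acid response factor), RTP1 (a factor for RNA polymerase II assembly), EAP1 (an eIF4E-binding protein), NAF1 (an assembly factor of box H/ACA particles), SIS2 (an inhibitor of the phosphatase Ppz1) and RUD3 (a Golgi protein). All 14 lost their call in 1 of the 16 alternatives, the AGY1859 libraries alone with culture as a block, in which the adjusted p was 0.154 to 0.388. AVT1, a vacuolar amino acid transporter, fell from 197, 570 and 633 counts to 1, 0 and 0, a log2 change of -8.56 ± 1.16 (SE, adjusted p = 2.72e-07), and was called in all 16.

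Over the whole table, 108 tested entries had no count in any AGY1859 library of generation 10, and 79 of them were called. Calls depended on abundance: 26.4% of entries with under 50 mean counts at generation 0 were called, 7.75% of those with 200 to 500, and 16.9% of those with 1000 or more. Their direction did too. Under 50 counts, 70 entries were called lower and 3 higher, and from 50 to 200 counts 41 and 1. From 500 to 1000 counts the split was 80 lower and 66 higher, and at 1000 or more 206 and 154. Among entries with at least 50, 592 (13.8%) were called.

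Signalling genes moved in both directions. The cell wall integrity and HOG pathways are the routes that answer wall damage and high osmolarity. Of their 19 tested entries, 4 were called lower and 3 higher, 36.8% against 14.5% over all entries. The median log2 change was 0.30 against 0.01 over all tested. HOG1, the kinase at the end of the osmolarity route, fell from 906 ± 17.9 to 354 ± 46.3 CPM (SD, n = 3), a log2 change of -1.36 ± 0.17 (SE, adjusted p = 2.66e-08). SSK1, an upstream activator of that route, changed by -2.32 and RHO1, the GTPase that activates Pkc1, by -1.31. MID2, a wall stress sensor with 2 barcoded entries, rose in both, by 1.33 and 0.70. In the Ras and protein kinase A pathway, 2 of 10 rose and 1 fell (30% called), with a median of 0.08. RAS2 rose by 1.47 beside CDC25. PDE2, the phosphodiesterase that breaks down cyclic AMP, changed by -1.58 (edgeR, adjusted p = 0.0453, and 0.137 in the AGY1859 libraries alone). SSK1 was also not called in those libraries alone (adjusted p = 0.0696). None of 12 TORC1 pathway entries was called in edgeR, with 0 at an unadjusted p of 0.05 and 0 in DESeq2. In the list of Glc7 and its regulators, 1 of 15 rose (GLC7) and 1 fell (13.3% called). The fall was that of GIP1, a meiosis-specific Glc7 subunit, by -2.22 ± 0.41 (SE, adjusted p = 9.83e-05).

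Histone genes were called lower at a higher share than the 9.35% of all entries. Of 11 tested entries, 6 were called lower and none higher, with a median of -0.80. No histone entry was higher at an unadjusted p of 0.05 or in DESeq2. HHF2, a histone H4 gene, went from 295 ± 55.4 to 94.9 ± 28.1 CPM (SD, n = 3), and its log2 change was -1.65 ± 0.30 (SE, adjusted p = 7.38e-05). HHT2, a histone H3 gene, changed by -2.98, HHF1 by -1.21 and HHT1 by -0.92. Fitted to the AGY1859 libraries alone, 3 of 10 histone entries were called lower, and 1 with culture as a block. Histone genes exist as near-identical pairs, but each entry was counted by its own barcode.

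Ribosomal protein genes were called at 11.3% (large subunit) and 9.26% (small subunit), and initiation factors at 30.4%, against 14.5% over all entries. Of 71 large-subunit ribosomal protein entries, 7 fell and 1 rose, and of 54 small-subunit entries 4 fell and 1 rose, with medians of 0.04 and 0.00. Of 23 initiation factor entries, 5 fell and 2 rose, with a median of -0.45. GCN2, the kinase that phosphorylates eIF2, changed by -6.01 and SUI2, the alpha subunit of eIF2, by -2.81, while PAB1, the poly(A)-binding protein, rose by 1.56 ± 0.26 (SE, adjusted p = 1.66e-05). Among 11 elongation and termination factors, 2 rose and none fell, with 1 lower at an unadjusted p of 0.05 and 0 in DESeq2. STM1, a ribosome-bound protein, rose by 1.98 ± 0.26 (SE, adjusted p = 1.34e-07), and HYP2, the elongation factor eIF5A, by 1.67 ± 0.27. Ribosome biogenesis factors gave 3 falls and 4 rises of 73, 9.59% called. LOC1, an RNA localization and ribosome assembly factor, changed by -5.60, and RRP6, a nuclear exosome subunit, went from 13, 50 and 43 counts to 0 in all 3 libraries.

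Of 45 splicing entries 9 rose and 3 fell, 26.7% against the 14.5% called over all entries, with a median of 0.26. MUD1, the U1 snRNP A protein, fell by 1.67 on the log2 scale and PRP46 by 1.06. PRP3, a U4/U6 snRNP protein, rose by 1.73. None of the 9 rises was called in the AGY1859 libraries alone. Of 30 genes of deadenylation and decapping 13.3% were called, near the share over all entries, and 2 fell beside the rises of SBP1 and DHH1: PBP1, the Pab1-binding protein, changed by -1.18 ± 0.20 and NOT5, a subunit of the Ccr4-Not complex, by -2.59 ± 0.58 (SE, adjusted p = 2.5e-05 and 0.00109). None of 5 Pumilio-family entries was called in edgeR, with 2 at an unadjusted p of 0.05 and 1 in DESeq2.

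The list of RNA polymerase I and III factors gave 5 falls and 1 rise of 32, 18.8% called against 14.5% over all entries. In the AGY1859 libraries alone with culture as a block, 1 of the 32 was called lower and 0 higher. Over all entries 168 of 4453 were called in that setting. TFC3, the largest subunit of the polymerase III factor TFIIIC, went from 1010, 2412 and 2278 counts to 3, 8 and 18. The log2 change was -6.11 ± 0.55 (SE, adjusted p = 3.68e-12). TFC7, another TFIIIC subunit, also changed by -6.11, from 29, 106 and 116 counts to 0, 0 and 1. TFC1, also in TFIIIC, rose by 0.94 ± 0.21. In the AGY1859 libraries alone with culture as a block, the adjusted p (edgeR) was 0.275 for TFC7 and 0.0577 for TFC1. Of 35 nuclear pore and karyopherin entries, 3 fell and 1 rose, 11.4% called against 14.5% over all entries. The pore proteins NUP60 and NUP120 changed by -5.91 and -7.48, and both were called in all 16 alternatives.

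In the protein folding and turnover lists, calls were spread. The 6 CCT chaperonin entries gave 1 fall, CCT3, and 1 rise, CCT6 (0.91), or 33.3% called. None of 6 prefoldin entries was called in edgeR, with 1 at an unadjusted p of 0.05 and 0 in DESeq2. Of 27 proteasome entries, 3 rose and 1 fell, 14.8% called against 14.5% over all entries, with a median of 0.32. UBP6, a deubiquitinase of the proteasome, changed by -1.23 ± 0.20 (SE, adjusted p = 1.25e-05) and UBP13 rose. The 4 calls among the proteasome entries were lost in the AGY1859 libraries alone, with adjusted p of 0.0654 to 0.369. TUB2, beta-tubulin, fell from 545, 1326 and 1279 counts to 62, 29 and 35, a log2 change of -2.94 ± 0.67 (SE, adjusted p = 0.00135). The rise of AIP1, an actin-disassembly factor, rested on culture 1, with counts of 1004, 222 and 122 at generation 10.

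Metabolic and transport genes held some of the deepest falls. MET14, the adenylylsulfate kinase of sulfate assimilation, went from 655, 1616 and 1583 counts to 0, 5 and 3. The log2 change was -7.39 ± 0.50 (SE, adjusted p = 6.87e-16). SAM3, an S-adenosylmethionine permease, changed by -6.14 ± 0.74. In that list 2 of the 23 entries rose, SUL1 (a sulfate permease, 1.23) and MET6 (methionine synthase, 0.86). The share called in the list was 17.4%, against 14.5% over all entries.

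Of 23 ergosterol synthesis entries 3 fell and 2 rose, 21.7% called against 14.5% over all entries. ERG3, the C-5 sterol desaturase, went from 1099, 2458 and 2524 counts to 7, 41 and 21, a log2 change of -5.02 ± 0.45 (SE, adjusted p = 3.55e-12). ERG26, a C-3 sterol dehydrogenase, changed by -5.81 ± 0.75. The 3 called entries among 21 of sphingolipid synthesis all rose, 14.3% called against 14.5% over all entries. Without adjustment of p, 1 of the 21 passed as lower, and 0 did in DESeq2. Of the 3, LCB1, a subunit of serine palmitoyltransferase, had the lowest adjusted p, at 1.19 ± 0.22 (SE, adjusted p = 8.89e-05). In the AGY1859 libraries alone, 1 of 21 was called higher and 0 lower. The calls of LAC1 and TSC10 were lost there (edgeR, adjusted p = 0.0694 and 0.0784).

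Glycolytic genes gave 2 falls and 4 rises of 20, 30% called against 14.5% over all entries. TDH3, the main glyceraldehyde-3-phosphate dehydrogenase, changed by -1.46 ± 0.20, and PGK1, phosphoglycerate kinase, by 1.25 ± 0.26 (SE, adjusted p = 4.35e-07 and 0.000385). In the ion transport list, 3 of 9 rose and 2 fell (55.6% called), with 1 rise of 9 when culture was a block. PMA1, the plasma membrane proton pump, fell from 135 ± 9.26 to 13.4 ± 9.76 CPM (SD, n = 3), a log2 change of -3.30 ± 0.58 (SE, adjusted p = 3.69e-05). KHA1, a putative potassium/proton antiporter, was at 1, 2014 and 188 counts at generation 10, so its rise of 3.09 rested on culture 2.

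Wall genes also went both ways. Of 35 wall proteins and remodelling enzymes 6 fell and 4 rose, 28.6% called against 14.5% over all entries, with a median of -0.35. In the AGY1859 libraries alone, 2 of 34 were called lower and 1 higher, where 188 and 76 of 4453 were over all entries. With culture as a block in those libraries, 1 was called lower and 2 higher. CCW12, an abundant mannoprotein of the wall, went from 653, 1498 and 1568 counts to 1, 4 and 22, a log2 change of -5.61 ± 0.49 (SE, adjusted p = 2.12e-12). EXG1, an exoglucanase, rose by 0.95 ± 0.17 (SE, adjusted p = 4.46e-05). CRH1, a transglycosylase, was at 6942, 1088 and 463 counts at generation 10, and its rise of 2.84 rested on culture 1. In the traffic lists, VPS9, the exchange factor for a Rab GTPase, changed by -3.75 ± 0.60 (SE, adjusted p = 8.29e-06), and 5 of 44 vacuolar sorting entries were called lower (11.4%, near the 9.35% over all entries), 2 of 41 in the AGY1859 libraries alone. None was called higher in edgeR, where 5.18% were over all entries, with 0 at an unadjusted p of 0.05 and 0 in DESeq2.

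Of the genes named from lists, HHT2, HHT1, CCT6, PRP3, SUL1, MET6, AIP1, KHA1 and CRH1 were not called in the AGY1859 libraries alone, with adjusted p of 0.0641 (MET6) to 0.326 (KHA1). Without the culture named above, the log2 change was -0.10 for AIP1, 0.31 for KHA1 and 0.32 for CRH1. With culture as a block over all libraries, their adjusted p was 0.292, 0.571 and 0.0706. Some others lost the call in the AGY1859 libraries alone with culture as a block. Among these were SUI2, RHO1 and RRP6, with adjusted p (edgeR) of 0.0882, 0.0971 and 0.482.

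**Figure D3:**
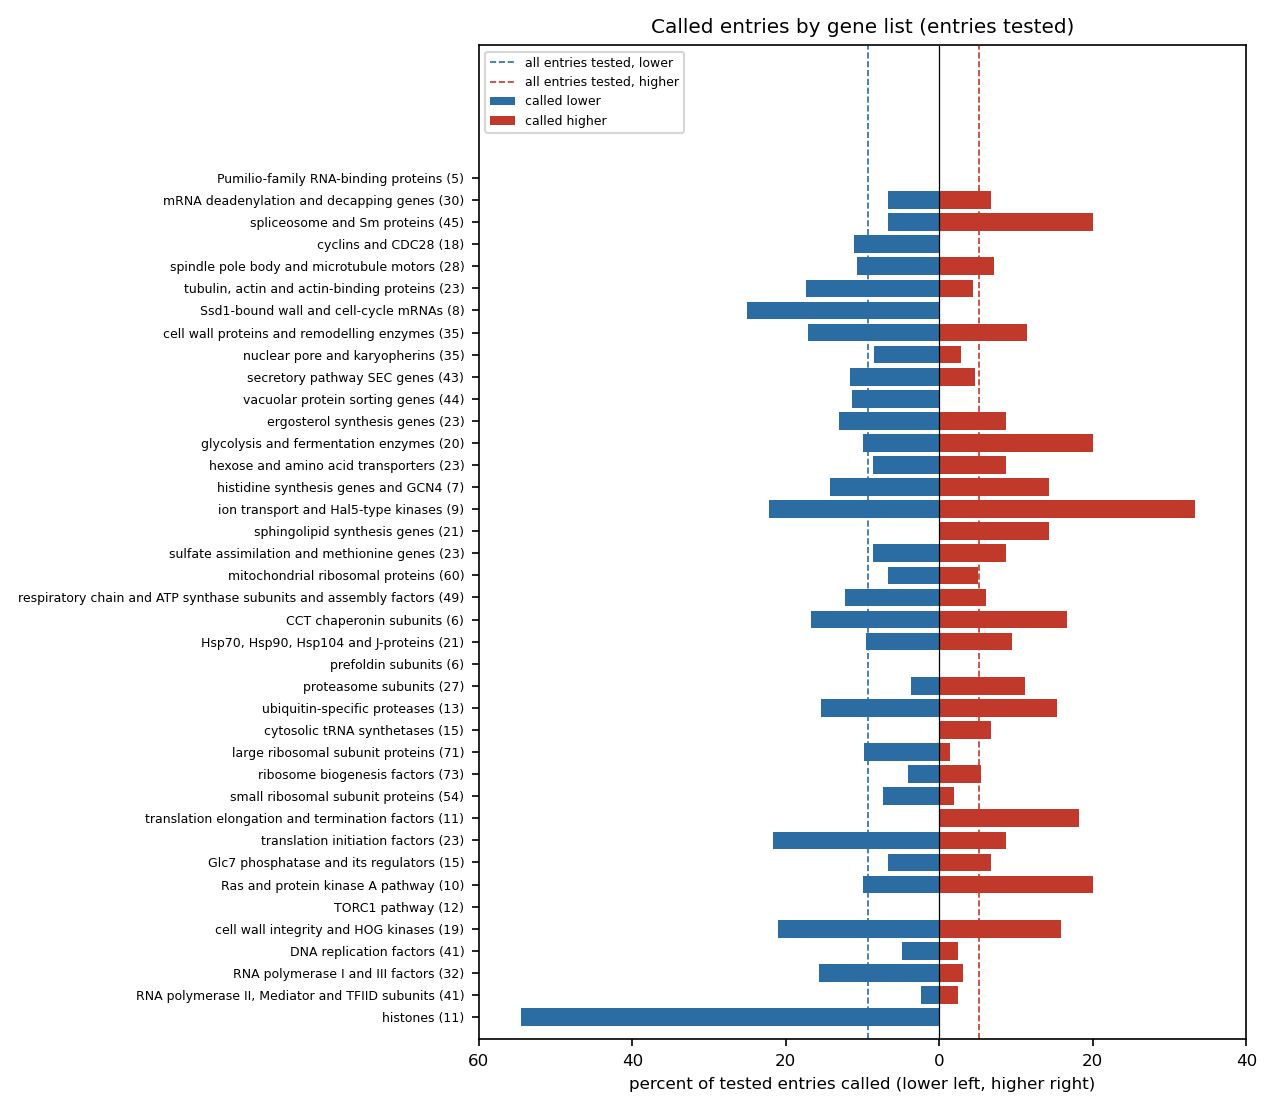
Percent of the tested entries of each gene list called lower (blue, to the left of 0) and higher (red, to the right) in AGY1859, with the number tested in brackets. Dashed lines mark the shares over all tested entries, 9.35% lower and 5.18% higher. Histones lie furthest to the left with 6 of 11, and ion transport furthest to the right with 3 of 9, which became 1 of 9 with culture as a block and 1 of 7 in the AGY1859 libraries alone.

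Many calls were shared with other strains. Of the 428 entries called lower, 140 were called lower in each of the 5 other strains and 55 in none. Of the 237 called higher, 6 were called higher in each of the others and 93 in none. The difference itself was tested against the mean change of the 5 other strains: 112 entries (2.45%) were called, 37 (0.808%) lower and 75 (1.64%) higher in AGY1859, and 609 (13.3%) at an unadjusted p of 0.05. Of the 75 higher in this difference, 40 were called higher in the AGY1859 change itself and 35 were not called in it. Of the 37 lower, 27 were called lower in that change and 10 were not called. Against AGY1611 alone 79 (1.73%) were called, 41 (0.895%) lower and 38 (0.83%) higher, and 657 (14.3%) unadjusted. Fitted to the 6 strains' libraries alone, with no generation 5 and no other strain, the count called against the mean was 68.

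Among the differences that ran higher, SFP1 had the same direction in all 3 cultures. Its log2 change per culture, on the scale of CPM plus 1, was 2.70 to 3.25 in AGY1859 and -2.55 to 0.61 in 15 cultures of the other strains, with no overlap. The difference from the mean was 3.51 ± 0.24 (SE, adjusted p = 2.84e-15). CUB1, a gene linked to DNA damage and proteasome function, went from 200, 204 and 233 CPM to 452, 797 and 1228 CPM. Its change per culture was 1.17 to 2.39 in AGY1859 and -3.47 to 0.43 elsewhere, and the difference was 3.33 ± 0.38 (SE, adjusted p = 1.83e-08). Both were called in all 21 alternatives. These entries and those named below were picked by this difference, so a lack of overlap is no separate support. How many of all tested entries show it was not counted.

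Among entries with at least 50 mean counts at generation 0, the other 6 of the 8 largest differences that ran higher were uneven between cultures. Larger differences were called among entries under that limit. ALD4, a mitochondrial aldehyde dehydrogenase, was at 0, 46 and 2536 counts at generation 10, and UTR1, an NAD kinase, at 111, 0 and 0. OSM1 (a fumarate reductase), PHO2 (a homeobox transcription factor), GAS3 (a putative glucanosyltransferase) and CTK3 (a subunit of a C-terminal domain kinase) had differences of 4.94, 4.79, 4.67 and 3.19. With culture as a block, the adjusted p was 0.407 for ALD4, 0.713 for UTR1, 0.0571 for OSM1, 0.293 for PHO2, 0.0435 for GAS3 and 0.360 for CTK3. The AGY1859 change itself was 1.22 for UTR1, 0.83 for OSM1, 1.19 for PHO2, -0.12 for GAS3 and 1.33 for CTK3. None of these changes was called (edgeR, adjusted p of 0.261 to 0.961). That of ALD4, 4.54, was called (edgeR, adjusted p = 0.0239).

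The differences that ran lower included both subunits of the G protein beta-gamma dimer of the pheromone response. STE4, the beta subunit, went from 546, 1373 and 1326 counts to 1, 4 and 7, a log2 change of -6.54 ± 0.53 (SE, adjusted p = 1.59e-13). All cultures of AGY1859 lay below all others, at -6.75 to -5.60 per culture against -3.88 to -0.14. STE18, the gamma subunit, was at 389, 411 and 417 CPM at generation 0 and at 50.7, 40.4 and 43.7 CPM at generation 10. The other strains' fitted changes of STE18 ran from -0.08 to 0.93, against -3.18 in AGY1859. The differences were -4.81 ± 0.54 for STE4 and -3.61 ± 0.35 for STE18 (SE, adjusted p = 1.08e-08 and 2.99e-10).

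PSR2, a plasma membrane phosphatase of the sodium stress response, went from 290, 316 and 349 CPM to 33.3, 35.2 and 28.8 CPM, and its difference was -2.52 ± 0.25 (SE, adjusted p = 2.99e-10). AGE1, a GTPase-activating protein for Arf, went from 326, 332 and 320 CPM to 45.7, 19.7 and 30.4 CPM, with a difference of -2.29 ± 0.36. STE4, STE18, PSR2 and AGE1 were called in all 21 alternatives. EGT2 (a wall protein of daughter cell separation), YHR131C (uncharacterised), PAP1 (poly(A) polymerase) and CCW12 had differences of -4.96, -3.72, -2.91 and -2.58 and lost the call in at least 1. With culture as a block the adjusted p of YHR131C was 0.0598. Per culture, AGE1 changed by -4.01 to -2.81 in AGY1859 and by -3.06 to 0.38 in the other strains. CCW12 changed by -7.01 to -4.41 and by -6.84 to 0.64. Both overlapped other strains, as did YHR131C and PAP1, while PSR2 and EGT2 did not. In the AGY1863 cultures AGE1 changed by -2.38, -3.03 and -3.06.

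**Figure D4:**
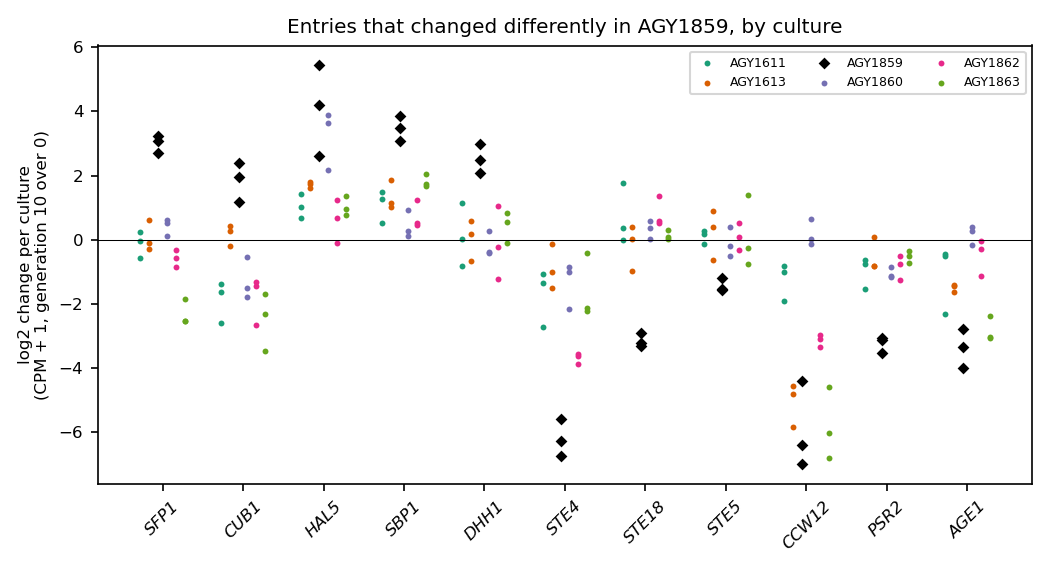
Log2 change per culture of 11 entries (y axis, CPM plus 1, generation 10 over generation 0), with 1 point per culture and a colour per strain. Diamonds are the 3 AGY1859 cultures. They lie above every other culture for SFP1, CUB1, SBP1 and DHH1, and below every other for STE4, STE18, STE5 and PSR2. For HAL5, CCW12 and AGE1 they overlap cultures of other strains. The entries were picked with values of these same cultures, so the lack of overlap is no separate support.

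Of the 54 genes with 2 barcoded entries, 43 had both tested. Both entries were called for ARO8, an aromatic aminotransferase, which changed by -2.21 and -1.35, and for MID2. In 5 genes exactly 1 entry was called, and in 36 neither. Across the 43 genes the Spearman correlation of the entries was 0.05, and -0.02 in the 38 with at least 50 counts in both. Named after their values were seen, BUB3, a spindle checkpoint protein, changed by -6.44 and -0.16, UBC13, a ubiquitin-conjugating enzyme, by -0.48 and -4.11, and DID4, an ESCRT-III subunit, by 0.48 and -2.96.

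**Figure D5:**
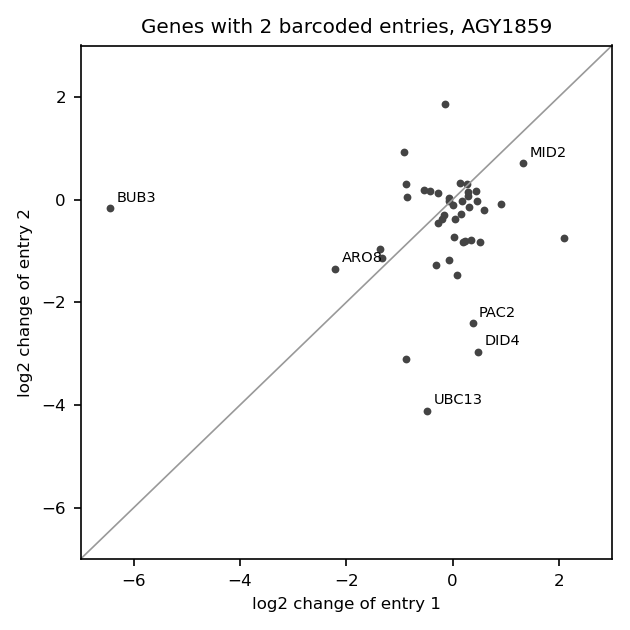
Fitted log2 change of the entries of each of 43 genes with 2 barcoded plasmids in AGY1859, entry 1 on the x axis and entry 2 on the y axis, with the line of equal change. The entries of ARO8 and MID2 differed by 0.86 and 0.63, against a median difference of 0.74 over the 43 genes. BUB3, UBC13, DID4 and PAC2 lie far from the line.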

How the data were processed

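The deposited table of batch 2 holds whole-number counts of barcodes per plasmid entry, not normalized. How the authors matched reads to barcodes is not given in the sources used here. Per the labels, barcodes were amplified with 20 PCR cycles. Symbols came from the R64 gene table, in which 4865 of 4872 names matched. The batch 1 table was not used.

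All 51 batch 2 libraries were fitted with edgeR 4.0.16 (R 4.3.3): scaled by TMM, filtered by filterByExpr (minimum count 10), with a coefficient for each group, and tested by quasi-likelihood F with Benjamini-Hochberg adjustment over 4579 entries. The fit did not use the empty vector, and 292 entries were not tested. The SE is the log2 change divided by the square root of F. On simulated counts for the AGY1859 change, 39 of 100 changes of 2-fold and 78 of 100 of 4-fold were recovered.

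Named were the 15 lowest and 15 highest called entries with at least 50 mean counts at generation 0 and 1 direction in all cultures, the 8 most negative and 8 most positive called differences with the same count minimum, the 5 most abundant, and up to 4 called per list. List members picked up by name alone but of another function were removed. A few named entries are not reported here. Members and lists were chosen with earlier results of these data known. P-values of the main fit compare a change with a spread estimated over all 51 libraries, without pairing by culture. Replicate numbers were taken to pair generation 0 with generation 10. Same-number deviations from the group means correlated at 0.536, 0.364 and 0.206 across entries. Replicate 3 of generation 0 correlated more with replicate 2 of generation 10 (0.243), so these values do not settle the pairing of replicate 3. Alternatives included DESeq2 1.42.0, other scalings and filters, culture as a block, fewer libraries and each AGY1859 library left out.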

Additional observations from a re-analysis of the deposited data

Results flagged for a closer look

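A test of the difference between AGY1859 and the mean of the 5 other strains called 112 entries. The 8 most negative and 8 most positive among those with at least 50 mean counts at generation 0 are given as log2 differences in the generation 10 change, and larger positive ones were called below that limit. Those lower in AGY1859 were EGT2 (-4.96), STE4 (-4.81), YHR131C (-3.72), STE18 (-3.61), PAP1 (-2.91), CCW12 (-2.58), PSR2 (-2.52) and AGE1 (-2.29). Those higher were ALD4 (6.51), UTR1 (5.59), OSM1 (4.94), PHO2 (4.79), GAS3 (4.67), SFP1 (3.51), CUB1 (3.33) and CTK3 (3.19). Of these, only ALD4, SFP1 and CUB1 were called higher in the AGY1859 change itself. Single cultures carried ALD4, at 1353 CPM in replicate 3 of generation 10 and 0 in replicate 1, and UTR1, at 92.3 CPM in replicate 1 and 0 in the other 2.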

How the results depend on the processing

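Of 665 calls of change, 146 (107 lower, 39 higher) held in every alternative that gave a value, as did 35 of 112 differences from the mean and 11 of 79 from AGY1611. With only the libraries of the strains compared, the counts were 264, 68 and 15. Adding the replicate block to those gave 168, 44 and 13. The replicate block over all libraries, with pairing by culture, gave 823, 93 and 99; it ended the call of 6 of 152 named changes, 9 of 39 named differences from the mean and 3 of 31 from AGY1611. DESeq2 gave 819, 235 and 187. Leaving out 1 AGY1859 library gave 436 to 860 changes, 56 to 210 differences from the mean and 38 to 162 from AGY1611, the lowest of each without generation 0 replicate 3 and the highest without generation 10 replicate 2. Over the same omissions the change ran from -0.83 (without generation 10 replicate 3) to 5.13 for ALD4 and from -0.10 to 2.37 for AIP1, and the difference from the mean from -4.01 to 6.42 for UTR1 and from -0.040 to 3.02 for CRH1; the last 3 reversed without generation 10 replicate 1. The cause of these shifts was not tested. Other scalings and filters, summed entries and leaving a strain out of the mean kept each count within 1.5 times.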

Other observations

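After STE4 and STE18 were seen, a list of 20 pheromone response genes was added. Of 18 tested entries, 4 were called lower and 2 higher (9.35% and 5.18% over all entries), with a median log2 change of -0.28 against 0.01 over all tested, and 3 were lower in the difference from the other strains (0.808% over all entries). STE4 and STE18, which prompted the list, are 2 of the 4 and 2 of the 3. STE5, the scaffold of the mating kinase cascade, went from 320, 890 and 783 counts to 45, 133 and 85, a change of -1.43 (adjusted p = 0.00652, edgeR) and a difference of -1.64 (adjusted p = 0.0159). FAR1, the mating arrest factor, changed by -1.27 (adjusted p = 0.0442). The rises were GPA1, the G alpha subunit that holds Ste4 and Ste18 inactive, at 1.00 (adjusted p = 0.0123), and KSS1, a kinase of the filamentous growth pathway, at 0.92 (adjusted p = 0.0442). KSS1 had 301, 1240 and 269 counts at generation 10, and culture 3 lay below its start, at 143 against 164 CPM. Neither differed from the other strains past the threshold, with differences of 0.72 and 0.07 (adjusted p = 0.27 and 0.983).

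By chromosome, 8.61% (VIII) to 17.4% (XII) of tested entries were called, and the median log2 change ran from -0.06 to 0.15. The empty vector, left out of the fit, had 764, 1784 and 1243 counts at generation 0 and 278, 409 and 444 at generation 10.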
